A study of Mus musculus with 12 samples.

Results

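The Sidekick genes Sdk1 and Sdk2 were described in single-nucleus RNA sequencing data from mouse cortex, as the rows of the gene tables with these symbols (2 of 55336 gene rows). The family was chosen from the Het against WT difference of Sdk2 in layer 6 corticothalamic nuclei, so the values of both genes in that contrast are given as a description without a test. The data came from 12 animals at postnatal day 21 (P21), of which 6 were WT and 6 carried 1 mutant copy of Myt1l (MYT1L Het), and each genotype held 3 males and 3 females. The line, MYT1L S710fsX, carries a germline frameshift in Myt1l on a C57BL/6J background, and its Het animals were bred to WT mice. All animals of both genotypes had received AAV9 with Calling Cards reagents, which record protein-DNA contacts, shortly after birth, so the WT animals were not untreated. The study asked which cell types of the maturing cortex differ in expression when MYT1L, a zinc finger transcription factor of neurons, is reduced.

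Sidekick proteins are transmembrane cell adhesion molecules of the immunoglobulin superfamily, with immunoglobulin domains followed by fibronectin type III domains. Each of the pair binds preferentially to itself on a neighbouring cell. They are best known from the retina, where neurons that carry the same Sidekick arborise and form synapses in the same sublaminae. Their intracellular ends bind PDZ domains of MAGI scaffold proteins, which hold them at synapses.

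Sdk1 (ENSMUSG00000039683.16) spans 974 kb of the plus strand of chromosome 5, from 141241490 to 142215586 of mm10 (GENCODE M21 annotation), with 45 exons in its transcript of longest coding length. Sdk2 (ENSMUSG00000041592.16) spans 291 kb of the minus strand of chromosome 11, from 113776374 to 114067046, also with 45 exons. No other annotated gene overlaps Sdk2. Within the span of Sdk1 lie 7 short genes of the opposite strand, and no gene of the same strand. The 200 bases ending 51 bases before the RefSeq start of each gene (GRCm38.p6) are shown because these are the start regions of the genes whose levels are compared, Sdk1 at chr5:141241284-141241483 and Sdk2 at chr11:114067080-114067279, both written 5′ to 3′ on the strand of the gene. Capitals mark the CCAAT letters (ATTGG where they lie on the opposite strand).

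Sdk1: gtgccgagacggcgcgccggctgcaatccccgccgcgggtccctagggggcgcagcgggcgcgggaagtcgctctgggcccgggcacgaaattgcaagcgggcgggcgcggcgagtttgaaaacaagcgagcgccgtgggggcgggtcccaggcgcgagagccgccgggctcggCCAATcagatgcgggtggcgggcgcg

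Sdk2: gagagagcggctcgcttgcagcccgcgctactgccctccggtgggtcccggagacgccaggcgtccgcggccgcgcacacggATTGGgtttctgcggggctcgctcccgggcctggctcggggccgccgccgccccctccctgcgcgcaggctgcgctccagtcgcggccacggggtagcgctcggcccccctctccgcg

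The start regions of both genes are rich in G and C, 76.0% for Sdk1 and 78.5% for Sdk2, against a median of 51.5% over 32851 start regions of the same length. Neither holds AAGTT, the core letters bound by MYT1 family proteins, on either strand; 30.5% of all start regions hold it. Both hold CCAAT on a strand, as do 28.4% of all start regions, and these letters were picked after the sequences were seen. A match of letters is a description and not a binding site.

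The tables held 78743 barcodes, with 23429386 to 59958572 UMIs per animal. Of these, 34862 were within the quality limits of the study, 860 with marker transcripts of more than 1 broad cell group were removed, and 34002 were used, 1594 to 4543 per animal. Median depth was 2985 to 3398 UMIs per nucleus in every animal, and no barcode occurred in more than 1 animal. Clusters were made without Sdk1, Sdk2 and Myt1l from the 78722 barcodes with a mitochondrial share of no more than 1%. They were given a class from marker genes, and 38 of 88 clusters met the criteria. These held 19852 of the nuclei used, in 19 classes, which left 41.6% of the nuclei used without a class. In the L6 CT-like class all 5 markers (Foxp2, Hs3st4, Tle4, Rprm and Crym) were at least 2-fold above the other classes, together 6427 against 688.8 CPM (UMIs of the genes per 1000000 UMIs of the class). By their sum against the other classes, the markers were weakest in the CA1-like class, at 535.1 against 293.4 CPM, with 3 of 4 markers 2-fold up. The share of markers 2-fold up was lowest in the L5 ET-like class, at 3 of 7, with a sum of 176.9 against 57.3 CPM. The tissue is labelled cortex, but the CA1-like (658 nuclei), DG-like (828) and striatal projection-like classes (1218) were named from marker genes of hippocampus and striatum, not of cortex. No library went against its labelled sex. The counts do not separate the copies of Myt1l, and how much transcript the mutant copy gives was not tested. The Myt1l transcript therefore does not check the genotype. Its level in L6 CT-like nuclei was 1206 ± 84.3 CPM in WT (SD, n = 6; 1110 to 1308) and 1434 ± 86.1 CPM in Het animals (n = 6; 1350 to 1589). The WT and Het animals did not overlap, with a log2 difference of 0.22 ± 0.06 (SE), which did not pass correction over all genes (edgeR adjusted p = 0.0872). Myt1l was called in 0 of the 17 classes in which it passed the filter on low counts, but its estimate was higher in Het animals in 15 of them (log2 -0.04 to 0.43, median 0.08). Over all nuclei it was at 881.5 ± 42.3 CPM in WT and 983.2 ± 30.1 CPM in Het animals (log2 0.13 ± 0.05, edgeR adjusted p = 0.711), with overlap. A lower Myt1l transcript in the animals labelled Het was thus not seen.

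Among the named classes, Sdk1 was highest in layer 6 intratelencephalic (L6 IT-like) nuclei, followed by Vip-like interneurons and L6b-like nuclei, the descendants of the subplate. The L6 IT-like class was cluster 43 alone (311 nuclei). Clusters 1 (1357 nuclei) and 40 (187 nuclei) also had L6 IT as their best marker list, but scored too low for a class. They held less Sdk1, 549.9 and 401.4 CPM. Per animal, the Sdk1 level in L6 IT-like nuclei was 1818 at the lowest, 2476 at the median and 2682 CPM at the highest, with a mean of 2389 ± 270 (SD, n = 12). In Vip-like nuclei the mean was 1895 ± 308 CPM and the range 1387 to 2425. In L6b-like nuclei it was 1351 ± 277 CPM, with a range of 872.1 to 1767. Each of these 3 differed from the next in order. L6 IT-like exceeded Vip-like nuclei in 10 of 12 animals by 0.34 ± 0.09 (SE) on the log2(CPM + 5) scale (adjusted p = 0.0132). Vip-like exceeded L6b-like nuclei in 11 of 12 animals by 0.50 ± 0.12 (adjusted p = 0.00879), and L6b-like exceeded Sncg-like nuclei by 1.29 ± 0.26, again in 11 of 12 animals (adjusted p = 0.00879). These are exact 2-sided sign-flip permutation tests over animals, adjusted over the 18 neighbours in the order of one gene, and the order itself was set on the same animals.

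Below this group, Sdk1 was at 611 ± 303 CPM in Sncg-like interneurons, 521.5 ± 86.9 in OPC-like nuclei (oligodendrocyte precursors), 431 ± 163 in Car3-like nuclei and 415.8 ± 61.0 in L6 CT-like nuclei, and the steps between these 4 classes did not pass the test. The next class, L5 NP-like (263 ± 72.1 CPM), was below L6 CT-like nuclei in 12 of 12 animals (log2 difference 0.69 ± 0.11, exact permutation, adjusted p = 0.00879, from the smallest p that 12 animals allow, 0.000488). From L5 NP-like through Sst-like (226 ± 44.7 CPM), Pvalb-like (203 ± 50.4), L2/3 IT-like (179 ± 36.2), L4/5 IT-like (164 ± 62.4), CA1-like (137 ± 77.0) and Lamp5-like nuclei (98.7 ± 32.4) no neighbouring step passed. Astrocyte-like nuclei held 90.4 ± 78.4 CPM over the 8 animals with at least 10 such nuclei, DG-like nuclei of the dentate gyrus 56.8 ± 21.5 CPM and striatal projection-like nuclei 50.6 ± 31.1 CPM. The step from striatal projection-like to L5 ET-like nuclei (19.2 ± 15.2 CPM) passed (1.33 ± 0.38, higher in 11 of 12 animals, exact permutation, adjusted p = 0.0229). Oligodendrocyte-like nuclei, at 18.4 ± 12.9 CPM, did not pass the test against L5 ET-like nuclei.

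Sdk2 had a different order, with layer 6 classes on top. It was at 519.5 ± 164 CPM in L6b-like nuclei (276.8 to 764.5 per animal, median 515), 422 ± 106 CPM in L6 IT-like nuclei (292.8 to 636) and 416 ± 85.5 CPM in L6 CT-like nuclei (296.9 to 528.2). The steps between these did not pass the test, while the step from L6 CT-like down to Sncg-like nuclei (166 ± 106 CPM) was 1.52 ± 0.22 on the log2 scale and present in 12 of 12 animals (exact permutation, adjusted p = 0.00879). It was the sole step of Sdk2 that passed. L6 IT-like nuclei were above L6 CT-like nuclei in WT (378.9 and 339 CPM) and below them in Het animals (465.5 and 493 CPM). Clusters without a class held Sdk2 at levels between L6 CT-like and Sncg-like nuclei. Among them were cluster 68 (231 nuclei, 314.3 CPM), cluster 1 (1357 nuclei, 245.1 CPM) and cluster 20 (1176 nuclei, 224.8 CPM). L5 ET-like nuclei held 141 ± 68.5 CPM, Vip-like 91.2 ± 40.1, L5 NP-like 73.0 ± 15.9, CA1-like 59.6 ± 21.5, DG-like 58.8 ± 15.6, L2/3 IT-like 56.5 ± 17.7, striatal projection-like 50.7 ± 25.0 and Lamp5-like 44.8 ± 16.8 CPM. Astrocyte-like (38.5 ± 40.8, n = 8), Car3-like (38 ± 26.2), OPC-like (21.7 ± 18.9), Sst-like (21.4 ± 10.2) and L4/5 IT-like nuclei (15.3 ± 6.35) followed. Pvalb-like (7.14 ± 3.02 CPM) and oligodendrocyte-like nuclei (6.14 ± 5.22 CPM) were lowest. L6 CT-like nuclei made up 13.5% ± 1.55 of the nuclei used per animal and held 45.5% ± 5.90 of all Sdk2 UMIs, compared with 19.7% ± 3.78 of all Sdk1 UMIs. L6 IT-like nuclei made up 0.914% ± 0.297 of the nuclei and held 8.51% ± 2.44 of the Sdk1 UMIs.

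**Figure D1:**
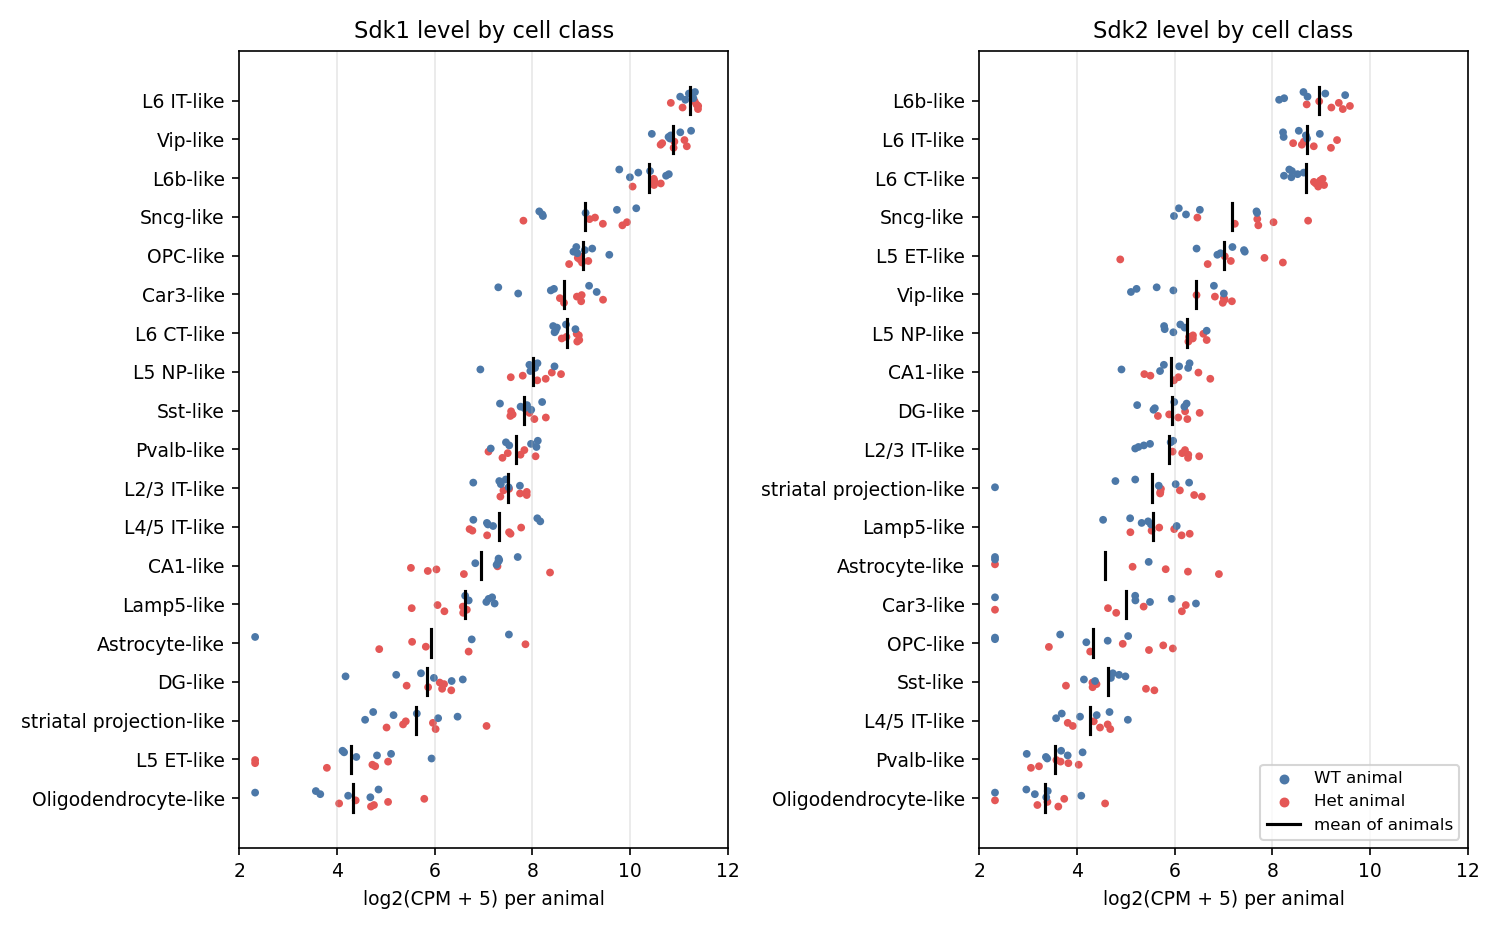
Level of Sdk1 (left) and Sdk2 (right) in 19 cell classes, as log2(CPM + 5) on the horizontal axis, with a point per animal (WT blue, Het red) and a black line at the mean of the animals, ordered by mean CPM. Sdk1 is highest in L6 IT-like, Vip-like and L6b-like nuclei, and Sdk2 in the 3 layer 6 classes L6b-like, L6 IT-like and L6 CT-like. The gap below these to Sncg-like nuclei holds among the named classes, and clusters without a class are not shown.

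Free RNA gives a low share of positive nuclei in any class, and oligodendrocyte-like nuclei, which had the lowest mean CPM of both genes, were used to gauge it. That they lack the genes is an assumption that was not tested: OPC-like nuclei held 521.5 CPM of Sdk1, and cluster 55, which had no class (379 nuclei, led by Bcas1 and Tns3), held 158.9 CPM. In nuclei thinned to 1500 UMIs, 1.93% of 1506 oligodendrocyte-like nuclei had a Sdk1 UMI and 0.863% had a Sdk2 UMI (4.78% and 1.86% without thinning, at a median of 2486 UMIs). Thinned L6 IT-like nuclei had a Sdk1 UMI in 86.5% and Vip-like nuclei in 81.9%. Thinned L6b-like nuclei had a Sdk1 UMI in 53.1% although their mean level was high, and OPC-like nuclei in 46.4%. Of L6 CT-like nuclei 25.7% had a Sdk1 UMI and 42.5% a Sdk2 UMI (34.7% and 65.7% without thinning, at a median of 3323 UMIs). Sdk2 was found in 45.6% of L6b-like, 41.8% of L6 IT-like and 17.9% of L5 ET-like nuclei. The Sdk2 share in Pvalb-like nuclei (0.780%) and the Sdk1 share in L5 ET-like nuclei (2.02%) were at or close to the oligodendrocyte-like share, so these levels could not be told from background.

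Because reads from nuclei depend on intron length, the level of one gene was not set against that of the other, and only the ratio of Sdk1 to Sdk2 was compared between classes. The log2 ratio within an animal, with 5 added to each CPM, averaged 4.44 ± 0.72 in Vip-like nuclei. It was 2.52 ± 0.37 in L6 IT-like, 1.41 ± 0.56 in L6b-like and 0.01 ± 0.20 in L6 CT-like nuclei (SD, n = 12). L6 CT-like animals lay between -0.29 and 0.36, so their range did not overlap with that of L6 IT-like nuclei (2.00 to 3.06). In L5 ET-like nuclei the mean ratio was the lowest of all classes. Its size is not given, because Sdk1 there could not be told from background and the value would rest on the added 5 CPM. For the same reason no ratio is given for Pvalb-like nuclei, or for OPC-like nuclei, where Sdk2 was 21.7 CPM and listed at 0 in some animals.

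**Figure D2:**
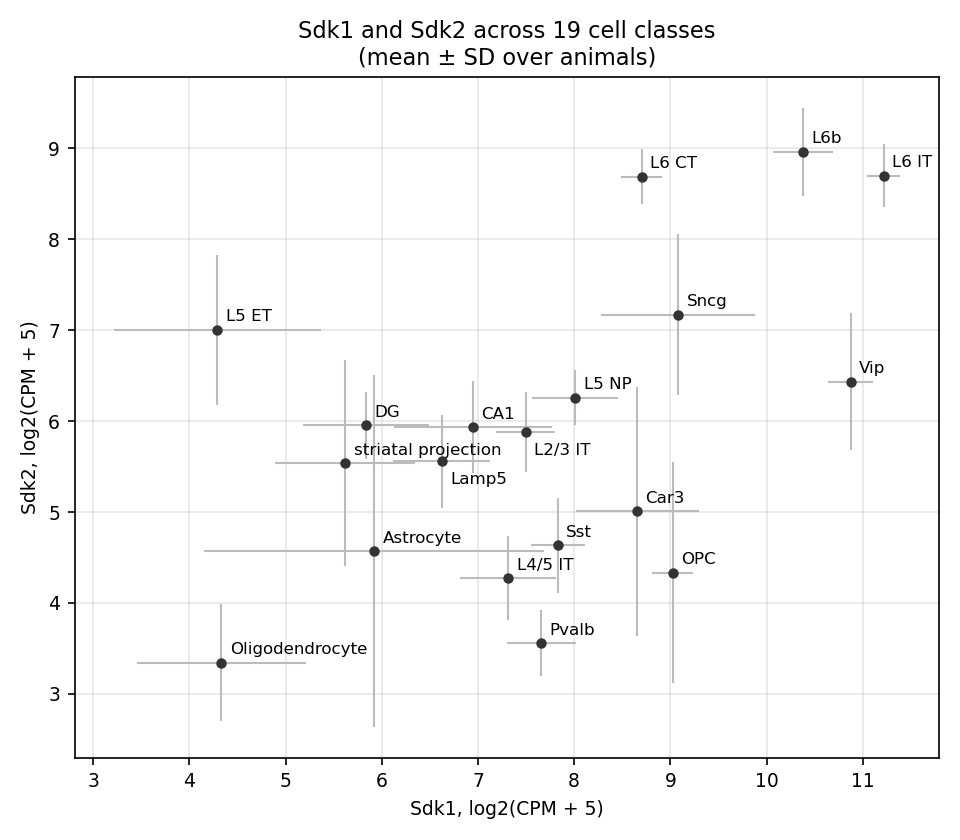
Mean level of Sdk1 (horizontal axis) and Sdk2 (vertical axis) in 19 cell classes, both as log2(CPM + 5), with bars of 1 SD over animals; the scales are not per length. L6b, L6 IT and L6 CT lie at the top, Vip and OPC to the right and lower down, and L5 ET at the left at a Sdk2 level of 141 CPM.

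Over the class means of log2(CPM + 5) of 5958 genes that reached 50 CPM in a class, the genes most like Sdk1 were Ptpru, a receptor tyrosine phosphatase (r = 0.69), Asic1, an acid-sensing ion channel (0.69), Cd200, a membrane glycoprotein of the immunoglobulin superfamily (0.68), Thsd7b (0.68) and Col24a1, a fibrillar collagen (0.68). Those most like Sdk2 were BC005537 (0.79), Dtnb, the dystrophin-associated protein beta-dystrobrevin (0.78), Sez6, a neuronal membrane protein (0.75), Gm38073 (0.74) and Gm37928 (0.74). The correlation of Sdk1 with Sdk2 was 0.51. These are descriptions over 19 classes that share the same 12 libraries.

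The L6 CT-like class was made of 5 clusters. In the largest, cluster 0 (2109 nuclei, led by Foxp2 and Rell1), the level was 256.5 CPM for Sdk1 and 398.6 CPM for Sdk2. In cluster 2 (1711 nuclei, led by Col5a1 and Foxp2) it was 792.8 CPM for Sdk1 and 501.7 CPM for Sdk2. In cluster 30 (521 nuclei, led by Cobll1 and Rxfp1), Sdk1 was at 60.9 CPM and Sdk2 at 380.8 CPM. In cluster 53 (224 nuclei, led by Sntb1 and Adamtsl1), the levels were 172.4 and 382.1 CPM, and in cluster 52 (61 nuclei, led by Arhgap25 and Hs3st4) they were 385.2 and 212.2 CPM. Clusters 30, 52 and 53 had no class under the stricter margin. Of the 5 L6 CT markers, Hs3st4 was the sole one among the 10 leading genes of cluster 30, beside Nr4a2, a marker of the Car3 list, and cluster 53 had none. Cluster 30 also shared leading genes with other classes, Rxfp1 with the Car3-like cluster 35 and Cdh18, Pcsk5 and Gm41414 with the L6b-like cluster 17, so its place in the class is uncertain. Within clusters 0 and 2, which kept the class, Sdk1 was at 256.5 and 792.8 CPM.

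Among L6 CT-like nuclei, Sdk2 was detected more often in those with Sdk1 than in those without it. In nuclei thinned to 1500 UMIs, the share with a Sdk2 UMI averaged 48.4% ± 6.83 among nuclei with a Sdk1 UMI and 39.5% ± 5.76 among those without (SD over 12 animals). The difference, 8.90 percentage points, was positive in 11 of 12 animals (exact sign-flip permutation test, p = 0.000977, adjusted p = 0.00781 over 8 classes). The clusters carry part of both genes, so the share was also compared within them. It was 10.9 points higher in cluster 2, in 12 of 12 animals (exact permutation, p = 0.000488), and 6.47 points higher in cluster 0, in 9 of 12 animals, where it did not pass the test (exact permutation, p = 0.0928). The other clusters held too few nuclei with Sdk1 to be compared per animal. Over all their nuclei, the share with a Sdk2 UMI was lower with Sdk1 than without it in cluster 30 (37.9% of 29 nuclei with Sdk1 and 41.5% of those without) and in cluster 53 (27.3% of 33 nuclei and 39.8%), and higher in cluster 52 (45.0% of 20 nuclei and 17.1%), with no test. In other classes the difference did not pass in L6b-like (-0.52 points), L2/3 IT-like (1.88) and L5 NP-like nuclei (-6.24). Of these, L6b-like nuclei were alone in holding Sdk2 as often as L6 CT-like nuclei. Nothing is read from the remaining classes in this family of 8, where few nuclei held Sdk2 at all (0.780% of Pvalb-like, 1.70% of L4/5 IT-like, 2.79% of Sst-like and 4.18% of OPC-like nuclei). Thinning fixes the number of UMIs but not the complexity of a nucleus, whose part was not tested. A difference between L6 CT-like and the other classes was not tested.

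In the contrast that chose the family, Sdk2 was higher in L6 CT-like nuclei of Het animals. The 6 WT animals were at 394.3, 332.7 and 320.5 CPM (males) and 330.1, 296.9 and 361.3 CPM (females), and the 6 Het animals at 456.8, 500.7 and 517.3 CPM (males) and 485.5, 528.2 and 469.1 CPM (females). Every Het animal was above every WT animal. The means were 339 ± 34.0 and 493 ± 27.7 CPM (SD, n = 6), with a log2 difference of 0.51 ± 0.07 (SE). Of the 8635 genes fitted in this class, 0.799% were called in either direction at an adjusted p below 0.05 and a log2 change above 0.2, but nothing is read from this for a gene chosen on the contrast. Sdk1 in the same nuclei ranged from 338.3 to 465.8 CPM in WT (median 353.8) and from 382.9 to 492.2 CPM in Het animals (median 476.2). Its groups overlapped, with means of 377 ± 49.8 and 454 ± 46.4 CPM and a log2 difference of 0.23 ± 0.08. With the stricter class margin, which left clusters 0 and 2, the log2 difference was 0.54 for Sdk2 and 0.23 for Sdk1. The difference of Sdk2 was alike in both sexes, from 349.2 to 491.6 CPM in males and from 329.4 to 494.3 CPM in females (means of 3 animals).

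**Figure D3:**
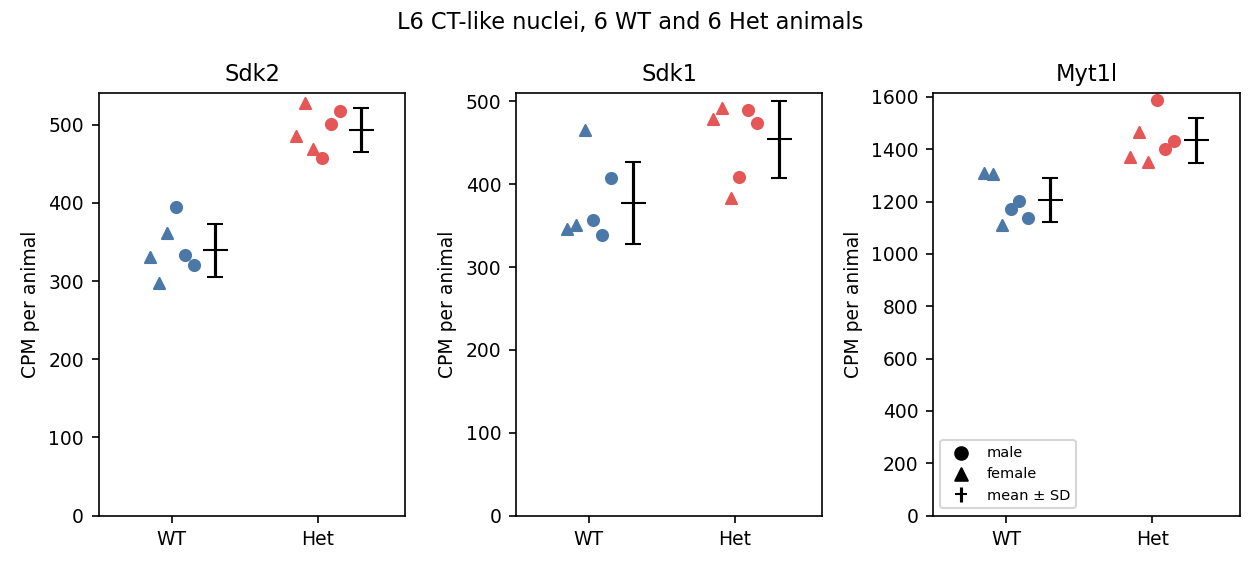
Level of Sdk2, Sdk1 and Myt1l in L6 CT-like nuclei in CPM, with a point per animal (circles male, triangles female) and the mean with 1 SD of 6 animals beside them. For Sdk2 and Myt1l each Het animal lies above each WT animal (Sdk2 456.8 CPM and above against 394.3 CPM and below), and for Sdk1 the groups overlap.

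A higher Sdk2 level went with more positive nuclei and with more UMIs in each. After thinning to 1500 UMIs, the share of L6 CT-like nuclei with a Sdk2 UMI was 37.4% ± 4.45 in WT (32.3% to 45.3%) and 46.2% ± 2.12 in Het animals (42.2% to 48.2%). Positive nuclei held 1.38 ± 0.07 Sdk2 UMIs in WT and 1.55 ± 0.05 in Het animals, and the share with 3 or more was 2.91% ± 1.66 and 5.76% ± 1.17. For Sdk1 the share was 23.7% ± 3.08 in WT and 26.5% ± 2.36 in Het animals, at 2.44 ± 0.13 and 2.50 ± 0.19 UMIs per positive nucleus.

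Sdk2 was also higher in Het animals in each of the 4 clusters that could be compared, which again is a description. Cluster 52 could not be, since no WT animal held 10 of its nuclei. In cluster 0 Sdk2 was at 316.9 ± 41.2 CPM in WT and 468.9 ± 30.4 CPM in Het animals (log2 0.56) without overlap of the animals. In cluster 2 it was 405 ± 89.8 in WT and 569 ± 56.6 CPM in Het animals (0.47), with overlap. Cluster 30 had 322 ± 129 and 404.8 ± 51.0 CPM (0.24), and cluster 53 had 254.9 ± 71.3 and 467 ± 104 CPM (0.85; 5 animals of each genotype had enough nuclei). Sdk1 was at 728.9 ± 146 and 827.6 ± 114 CPM in cluster 2 and at 230 ± 60.4 and 268 ± 36.5 CPM in cluster 0. Cluster 2, the one with the most Sdk1, made up 35.1% of the class in WT and 38.3% in Het nuclei, cluster 0 made up 47.8% and 44.0%, cluster 30 10.6% and 11.7%, cluster 53 5.53% and 4.35%, and cluster 52 0.940% and 1.59%. Over all nuclei together, Sdk2 was at 104.4 ± 12.6 CPM in WT and 148 ± 16.7 CPM in Het animals, without overlap, a sum that includes the L6 CT-like nuclei.

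**Figure D4:**
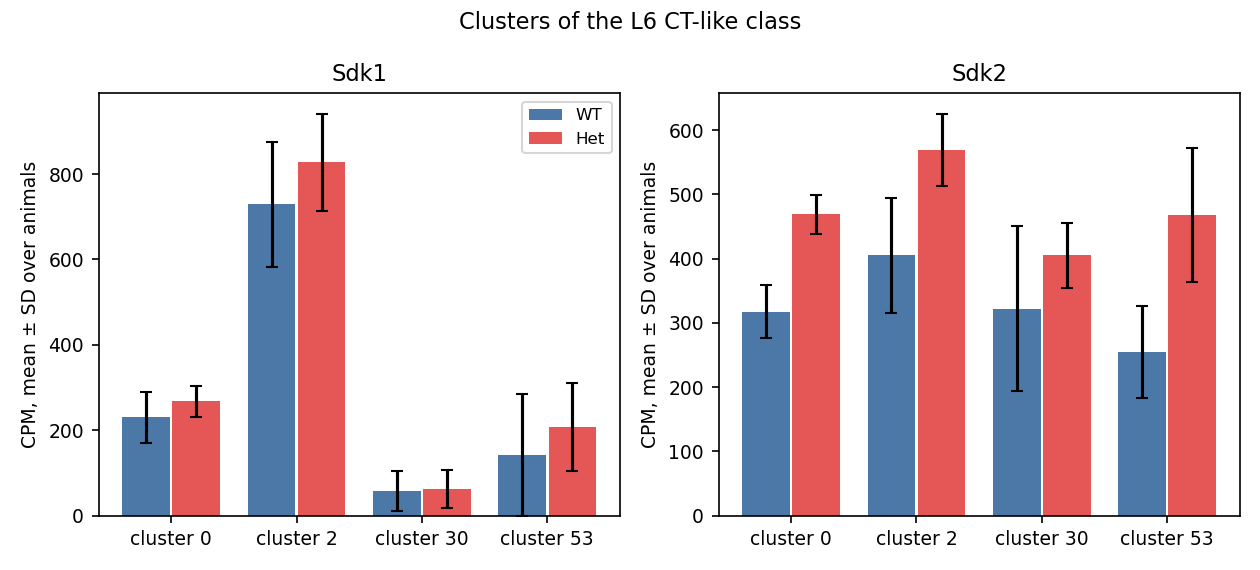
Sdk1 (left) and Sdk2 (right) in 4 clusters of the L6 CT-like class in CPM, as the mean with 1 SD over WT (blue) and Het (red) animals. Sdk1 differs between clusters, from 57.5 CPM in cluster 30 to 729 CPM in cluster 2 in WT, while the Sdk2 bars of Het animals stand above those of WT in each cluster.

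Outside the L6 CT-like class the comparison of genotypes could be tested. Sdk1 passed the filter on low counts in 15 other classes and Sdk2 in 11, and neither gene was called in any of them by edgeR. DESeq2 made no call either, but gave no adjusted p for Sdk2 in L2/3 IT-like, L5 NP-like, CA1-like, DG-like and Lamp5-like nuclei and for Sdk1 in DG-like, Lamp5-like and Pvalb-like nuclei, so these were not tested by it after correction. At an unadjusted p below 0.05 there were 6 of 26 tests with edgeR and 5 with DESeq2. For Sdk1 it was 1 of 15 and for Sdk2 5 of 11 with edgeR, beside 6.65% and 6.75% of the tests of all genes in the same classes. The share of all genes at this p with DESeq2 is not given here, so nothing is read from its count. The share of all genes called in these classes was 0.262% in CA1-like, 0.145% in L4/5 IT-like, 0.121% in L6 IT-like, 0.107% in Sncg-like, 0.0994% in DG-like, 0.0831% in L2/3 IT-like, 0.0564% in Sst-like and 0.0397% in Vip-like nuclei, and 0% in the other 10 classes. The same 12 animals enter each class, so the classes are not independent of each other. L6 CT-like nuclei numbered 4626, compared with 241 to 1365 in the other classes where Sdk2 was tested, and a difference that does not pass here is not shown to be absent.

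For Sdk2, the smallest unadjusted p was in L2/3 IT-like nuclei. Its level there was 31.6 CPM at the lowest, 38.2 at the median and 57.6 at the highest in WT, and 57.2, 70.8 and 85.6 CPM in Het animals. The groups overlapped narrowly, with a log2 difference of 0.59 ± 0.19 (edgeR adjusted p = 0.409). The largest cluster of this class was cluster 10 in Het nuclei (45.0% of them) and was level with cluster 27 in WT nuclei (35.9% each). Cluster 27 made up 31.0% of the Het nuclei, and cluster 12 made up 28.3% in WT and 24.0% in Het nuclei. Over the nuclei of both genotypes, Sdk2 was at 77.8 CPM in cluster 10, 61.8 in cluster 12 and 34.7 in cluster 27. The part of these shares in the class difference was not tested. In Vip-like nuclei Sdk2 was at 65.7 ± 40.0 CPM in WT (29.4 to 123.6) and 117 ± 19.5 CPM in Het animals (82.3 to 139.2), a log2 difference of 0.77 ± 0.27 (adjusted p = 0.48). In L6b-like nuclei, where the level was highest, it was at 439 ± 164 (276.8 to 714.4) and 599.6 ± 131 CPM (411.7 to 764.5), a difference of 0.43 ± 0.20 (adjusted p = 0.82). Striatal projection-like (0.80 ± 0.33) and Sncg-like nuclei (0.79 ± 0.37) were the others with an unadjusted p below 0.05. Without upper limits on UMIs and genes these differences were smaller, 0.32 in L2/3 IT-like, 0.40 in Vip-like, 0.33 in Sncg-like and 0.40 in striatal projection-like nuclei, and 0.37 in L6b-like nuclei, and none was called. That alternative also dropped the lower limits and the limit on log(genes) over log(UMIs). In the remaining classes the log2 difference was 0.53 ± 0.27 in Lamp5-like (0.68 without upper limits), 0.31 ± 0.20 in L5 NP-like, 0.24 ± 0.18 in L6 IT-like, 0.22 ± 0.25 in DG-like, 0.18 ± 0.33 in L5 ET-like and -0.00 ± 0.25 in CA1-like nuclei. Summed over all nuclei outside the L6 CT-like class, Sdk2 was at 69.3 ± 12.5 CPM in WT and 89.3 ± 15.3 CPM in Het animals, with overlap, a difference of 0.33 ± 0.14 (edgeR adjusted p = 0.93, unadjusted p = 0.0396). The sum includes the 14150 nuclei without a class. Among these was cluster 78 (69 nuclei, 279.7 CPM of Sdk2, led by Inpp5d, Csf1r and Lyn), whose best marker list was L6 CT. That list was also best for further clusters without a class, such as 60 (105 nuclei) and 62 (110 nuclei). Another was cluster 85 (30 nuclei), which scored 2.87 on it, beside 2.78 for cluster 0 of the class. The sum is thus not free of nuclei like those of the choosing contrast, and its mix of cell classes was not held constant. No gene was called in this sum (0% of 16254). In oligodendrocyte-like nuclei, used to gauge free RNA, Sdk2 was at 4.92 ± 4.02 CPM in WT and 7.35 ± 6.34 CPM in Het animals, and its part in the other classes was not tested.

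For Sdk1, the smallest unadjusted p was in Lamp5-like interneurons, in the opposite direction to L6 CT-like nuclei. The WT animals ranged from 93.5 to 144.6 CPM (median 130.2) and the Het animals from 41.1 to 95.8 CPM (median 79.3), so that the groups overlapped by a small margin. The log2 difference was -0.60 ± 0.19 (edgeR adjusted p = 0.328). With no limits on UMIs, genes and their log ratio (the alternative without upper limits), 1331 Lamp5-like nuclei gave 119.6 ± 22.5 CPM in WT and 116.3 ± 33.8 CPM in Het animals, a difference of -0.047 ± 0.16 (edgeR adjusted p = 0.987). In L6 IT-like nuclei, where Sdk1 was highest, it was at 2363 ± 182 CPM in WT and 2415 ± 354 CPM in Het animals (log2 0.01 ± 0.11), and without upper limits at 1895 ± 190 and 2165 ± 211 CPM (0.16 ± 0.09, edgeR adjusted p = 0.781). In Vip-like nuclei it was at 1877 ± 348 and 1912 ± 294 CPM (-0.02 ± 0.11), and in L6b-like nuclei at 1308 ± 366 and 1393 ± 176 CPM (0.06 ± 0.15).

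Both Sdk1 results that passed in an alternative did so with another choice of nuclei or with 1 animal left out. With no limits on UMIs, genes and their log ratio (the alternative without upper limits), the L6b-like class grew from 401 to 1438 nuclei. Sdk1 was then at 1233 ± 119 CPM in WT (1085 to 1422) and 1629 ± 220 CPM in Het animals (1268 to 1863), a log2 difference of 0.38 ± 0.08 that was called (edgeR adjusted p = 0.0474). Over the 19 other alternatives that difference lay between -0.024 and 0.17, with edgeR adjusted p of 0.677 or above. In CA1-like nuclei Sdk1 was at 153 ± 29.8 CPM in WT and 120 ± 107 CPM in Het animals, with Het female replicate 2 at 323.4 CPM (28 nuclei) and the other Het animals at 150.8 CPM or below. The log2 difference was -0.68 ± 0.43 (adjusted p = 0.818) with this animal and -1.06 without it, where it was called (edgeR adjusted p = 0.0192). Over its 19 other alternatives it lay between -0.81 and -0.38, with adjusted p of 0.594 or above. In the other classes the log2 difference of Sdk1 was 0.43 ± 0.43 in striatal projection-like (0.023 without Het female replicate 3), 0.31 in DG-like and Car3-like, 0.25 in L2/3 IT-like and Sncg-like, 0.15 in L5 NP-like, -0.03 in Sst-like, -0.17 in OPC-like, -0.18 in Pvalb-like and -0.28 in L4/5 IT-like nuclei.

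**Figure D5:**
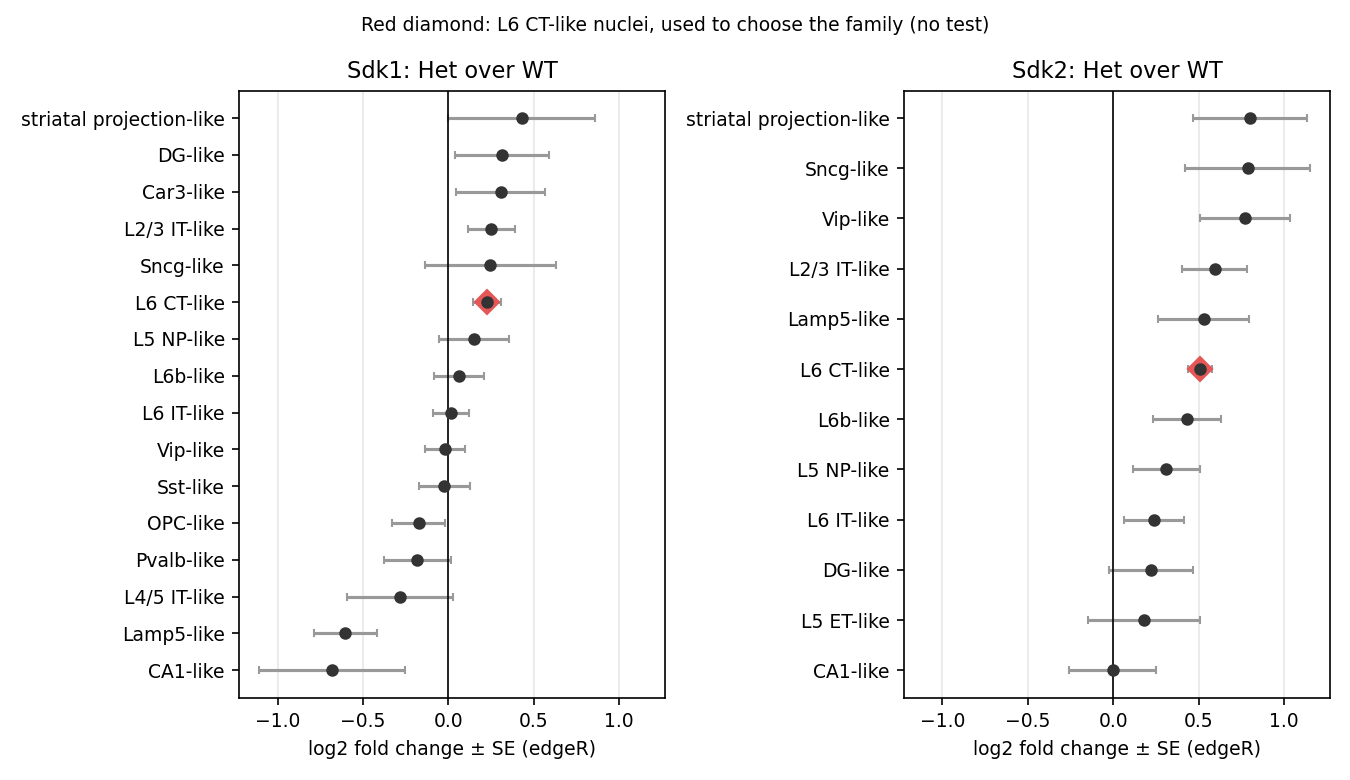
Het over WT log2 fold change of Sdk1 (left) and Sdk2 (right) by cell class, as edgeR estimates with bars of 1 SE. The red diamond marks L6 CT-like nuclei, whose contrast was used to choose the family and is not tested; Sdk1 lies on either side of 0, from -0.68 in CA1-like to 0.43 in striatal projection-like nuclei, and Sdk2 between -0.00 in CA1-like and 0.80 in striatal projection-like nuclei.

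Whether the genotype difference itself differed between females and males was tested by the sex by genotype term. Neither gene was called in any class, and 0.0268% of 55896 tests over all genes and classes outside L6 CT were called. The smallest unadjusted p of Sdk2 was in L6b-like nuclei, where it went from 548.3 to 518.8 CPM in males and from 330.4 to 680.4 CPM in females (difference of the log2 changes 1.12 ± 0.34, edgeR adjusted p = 0.506 over all genes). For Sdk1 it was in Sncg-like nuclei, from 743.8 to 469.1 CPM in males and from 373.4 to 858.5 CPM in females (1.82 ± 0.60, edgeR adjusted p = 0.799). L6b-like nuclei numbered 401 and Sncg-like nuclei 241 over the 12 animals.

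A list of 42 further immunoglobulin superfamily adhesion genes and PDZ scaffold genes was examined in the same fits, to place the Sidekick genes among their relatives. The list was chosen with earlier results of these data known, so no enrichment is read from the counts called. In L6 CT-like nuclei, 2 of 36 list genes that passed the filter were called, both higher in Het animals, beside 0.799% of all genes. They were Igsf21, an adhesion protein of inhibitory synapses, from 213.4 ± 18.9 to 282.4 ± 20.4 CPM (log2 0.38 ± 0.08, edgeR adjusted p = 0.0113), and Mdga1, a membrane-anchored protein that binds neuroligin-2, from 27.9 ± 5.43 to 48.7 ± 9.97 CPM (0.72 ± 0.15, adjusted p = 0.0113). For both the Het animals lay above all WT animals. The Igsf21 estimate was larger in L2/3 IT-like nuclei, where it was not called (0.64 ± 0.21, edgeR adjusted p = 0.409). It was lower in Het animals in CA1-like (-0.27) and OPC-like nuclei (-0.20). In CA1-like nuclei 1 of 29 list genes was called, beside 0.262% of all genes. This was Ncam2, a neural cell adhesion molecule, from 660.3 ± 142 to 427.8 ± 105 CPM (-0.72 ± 0.14, adjusted p = 0.015), with overlap. Its estimate was also lower in Het animals in the other classes except L2/3 IT-like (0.09), without a call. In Vip-like nuclei it was -0.53 ± 0.17 (edgeR adjusted p = 0.48) and in L6 CT-like nuclei -0.43 ± 0.17 (edgeR adjusted p = 0.409). No list gene was called by edgeR in the other 17 classes, where 61 of 482 tests had an unadjusted p below 0.05, 19 of them (3.94%) higher and 42 (8.71%) lower in Het animals. Over all genes in these classes 3.08% were higher and 3.18% lower at this p. The list genes recur from class to class in the same animals, and the difference from all genes was not tested. With DESeq2, 6 list results were called over all classes, namely Igsf21 (0.38) and Nrcam (-0.24) in L6 CT-like, Ncam2 (-0.70) in CA1-like, Cadm2 (-0.33) and Cntn5 (-0.28) in Lamp5-like and Cntn6 (-0.39) in Pvalb-like nuclei. Nrcam, Cadm2, Cntn5 and Cntn6, adhesion genes of the immunoglobulin superfamily named here after their values were seen, were not called by edgeR (adjusted p of 0.0725 to 0.199). DESeq2 gave no adjusted p for Mdga1 in L6 CT-like nuclei. The share of all genes called by DESeq2 is not given here, so nothing is read from its count of list results. The median log2 difference of the list was -0.02 in L6 CT-like nuclei and -0.00 over all genes there.

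The scaffold partners of the Sidekick proteins were not called in any class by edgeR. DESeq2 called none of them either, but gave no adjusted p for some, Magi3 in L6 CT-like nuclei among them. In L6 CT-like nuclei the log2 difference was -0.14 ± 0.08 for Magi1 (edgeR adjusted p = 0.599), -0.07 ± 0.06 for Magi2 (adjusted p = 0.761) and -0.01 ± 0.11 for Magi3 (adjusted p = 0.998). The smallest adjusted p of the 3 was that of Magi2 in CA1-like nuclei (-0.38 ± 0.10, edgeR adjusted p = 0.0726, DESeq2 adjusted p = 0.0983).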

How the data were processed

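Nuclei of tissue labelled cortex from 12 P21 animals were profiled by combinatorial indexing (Scale Biosciences), with all libraries of this age prepared in parallel. The deposited values were expected counts: the authors mapped reads to mm10 and counted UMIs per gene and nucleus with ScaleRna, dividing a UMI that fits several genes, with no normalization; 92.6% of entries (94.3% of those of Sdk1 and Sdk2) were whole. The files held fewer barcodes than the nuclei the study counts at this age, and whether multiplets had been removed before deposit is not known. Barcodes were kept within the limits of the study, namely 800 to 6000 UMIs, 300 to 3000 genes, a mitochondrial share of no more than 1% and log(genes) over log(UMIs) of 0.9 or above. No doublet caller was run; nuclei with at least 2 marker UMIs of a further broad cell group were removed as likely doublets.

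Clustering and naming used all 78722 barcodes with a mitochondrial share of no more than 1%, before the other limits and the removal of likely doublets. They were clustered with leidenalg 0.10.2 at resolution 3 on 50 components of 3000 variable genes, without Sdk1, Sdk2, Myt1l and sex-linked genes, giving 120 clusters, of which those with fewer than 50 nuclei were set aside. A class name needed a marker score of at least 1 (2 for non-neuronal clusters), 3 markers raised 2-fold and, among the 10 leading genes, as many own markers as those of any other class (more for non-neuronal clusters). The score had to lead the next list by 0.3, unless it was at least 2 and own markers outnumbered those of any other class. Clusters with no own marker among the leading genes kept a name just at a score of at least 2. Those with Tfap2d among the leading genes got none. The names are rebuilt and may differ from those of the study. Counts were summed per animal and class with at least 10 nuclei, rounded and tested with edgeR 4.0.16 (quasi-likelihood, TMM, filterByExpr, genotype only) over all genes, with Benjamini-Hochberg adjustment; a call needed an adjusted p below 0.05 and an absolute log2 change above 0.2. CPM are UMIs per 1000000 UMIs of the class sum. Levels between neighbouring classes, and the share of Sdk2-positive nuclei, were compared by exact sign-flip permutation tests over animals. Sex was added in a separate fit. Alternatives were DESeq2 1.42.0, RLE scaling, no filter on low counts, sex as a covariate, a replicate block, no upper limits, stricter class margins, nuclei with doublet markers kept, no thinning and leaving out each animal; the single clusters and the sum outside L6 CT-like nuclei were added after seeing the data. The alternative without upper limits kept just the mitochondrial limit and the removal of likely doublets. The test scripts were tested on simulated data. The members, the gene lists and the class markers were chosen with earlier results of these data known. The genes named were Sdk1, Sdk2, Myt1l, list genes called in a class, Magi1, Magi2 and Magi3, and the 5 genes most like each member. Replicates are separate animals. Counting error is not separated from spread between animals. The study's own tables of comparisons were not used. Protein sequences were not used here.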

Additional observations from a re-analysis of the deposited data

Results flagged for a closer look

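Per class and genotype, the animals were tested for a value far from the rest (Dixon's ratio, 74 groups of at least 4 animals, of which chance flags about 1 in 20), and 2 values stood apart, both of Sdk1 and both in Het females. In L6b-like nuclei, Het female replicate 1 was at 1055 CPM, from 29 nuclei and 99.3 UMIs, while the other 5 Het animals lay between 1426 and 1576 CPM. In striatal projection-like nuclei, Het female replicate 3 was at 128.4 CPM, from 152 nuclei and 65.4 UMIs, while the other Het animals lay between 27.3 and 59.8 CPM. No value of Sdk2 stood apart in this way in any class tested.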

How the results depend on the processing

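Over all alternatives together, the direction and call of Sdk1 in single classes outside L6 CT-like nuclei held in 278 of 299 refits and those of Sdk2 in 207 of 216. Summed over both genes, 0 results were called in the main comparison and 1 without upper limits (Sdk1 in L6b-like nuclei, 0.38). Without upper limits Sdk2 was tested in 15 classes, with log2 differences from 0.038 to 0.68 and an unadjusted p below 0.05 in 7, all higher in Het animals. For Sdk1 3 of 16 classes had an unadjusted p below 0.05, all higher, in place of 1 of 15, which was lower, and the Sdk1 difference in Lamp5-like nuclei was -0.047 in place of -0.60. The shares of all genes called, or at this p, without upper limits are not given here, so nothing is read from these counts. The direction turned for Sdk2 in CA1-like nuclei (-0.0045 in the main comparison, 0.026 with no filter on low counts, 0.057 with DESeq2, 0.31 without upper limits), Sdk1 in Vip-like nuclei (0.019 with no filter), and Sdk1 in L4/5 IT-like (0.0079) and Sst-like nuclei (0.15) without upper limits. Called list genes numbered 3, but 6 with no filter on low counts, 6 with DESeq2 and 5 without upper limits. The shares of all genes called under these alternatives are not given here, so nothing is read from the list counts. In L6 CT-like nuclei the Sdk2 difference of 0.51 was 0.24 in cluster 30 and 0.85 in cluster 53 alone. The Sdk1 difference of 0.23 was 0.16 ± 0.14 (SE) in cluster 0 and 0.14 ± 0.12 in cluster 2. In cluster 53 it was 0.88 ± 0.65, from 5 animals of each genotype. Neighbouring steps that passed numbered 8 for Sdk1 and 4 for Sdk2 without upper limits, against 5 and 1, and 2 for Sdk2 with stricter class margins. Without thinning, the co-detection difference was 1.56 points in L6b-like and 0.53 points in OPC-like nuclei, against -0.52 and -2.46 with thinning. With thinning, it was 6.47 points in cluster 0 of L6 CT-like nuclei alone. The causes were not tested.

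Leaving out each animal in turn gave 0 to 1 calls of the members and 2 to 6 of the list. The Sdk2 difference in L6 CT-like nuclei stayed between 0.47 and 0.55 and that of Sdk1 between 0.19 and 0.30. The ranges were -1.06 to -0.44 for Sdk1 in CA1-like, -0.027 to 0.090 in L6 IT-like, -0.024 to 0.17 in L6b-like, -0.13 to 0.083 in Sst-like and -0.081 to 0.085 in Vip-like nuclei, 0.023 to 0.65 in striatal projection-like, 0.11 to 0.57 in Sncg-like, 0.13 to 0.52 in DG-like, 0.16 to 0.51 in Car3-like, 0.020 to 0.26 in L5 NP-like, 0.14 to 0.32 in L2/3 IT-like, -0.24 to -0.049 in OPC-like, -0.27 to -0.075 in Pvalb-like and -0.41 to -0.080 in L4/5 IT-like nuclei, and for Sdk2 -0.12 to 0.16 in CA1-like and -0.037 to 0.36 in L5 ET-like nuclei. Ranges of Sdk2 were also 0.11 to 0.35 in DG-like and 0.13 to 0.35 in L6 IT-like nuclei. The single Sdk1 call was in CA1-like nuclei without Het female replicate 2. The list counts of 5 and 6 came without WT male replicate 2 and without WT female replicate 1. The shares of all genes called in these refits are not given here, so nothing is read from the counts.

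With sex and replicate number as a replicate block (6 blocks), 0 calls of the members and 4 of the list were made, and Sdk2 in CA1-like nuclei was at 0.11. The share of all genes called in that fit is not given here. Whether the numbers pair the animals is uncertain. Animals were generally littermates per the study's methods, but the labels do not tie a number to a litter. Same-numbered animals of a sex correlated at 0.099 to 0.38 in their deviations, 5 of 6 pairs above 0.1 and 1 just under it, against a median of -0.023 for other pairs, and 3 of 6 Het animals matched best with their own number. Depth limits the classes with few nuclei and low levels, and Sdk2 was too low to be tested in 7 of the 18 classes other than L6 CT-like.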

Other observations

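Clusters that met no class criteria also held Sidekick transcripts. Cluster 77 (60 nuclei, led by Zfp804b, Mctp2 and Nek7) was at 1813 CPM for Sdk1, with a Sdk1 UMI in 91.7% of its nuclei, and at 4.67 CPM for Sdk2, with a Sdk2 UMI in 1.67%. Cluster 73 (143 nuclei, led by Gm39185, Adarb2 and Npas3) was at 796.8 CPM for Sdk1 and 274.4 CPM for Sdk2. Cluster 1 (1357 nuclei, led by Dnah14 and Pld5), with L6 IT as its best marker list at too low a score, was at 549.9 and 245.1 CPM. Cluster 68 (231 nuclei, led by Lgr5, Pde1c and Pax6) was at 227.4 CPM for Sdk1 and 314.3 CPM for Sdk2. Cluster 64 (230 nuclei, led by Bnc2, Slco1a4 and Flt1, genes of vessel and meningeal cells) was at 590.1 CPM for Sdk1 and 34.6 CPM for Sdk2. These clusters were chosen after their values were seen, and no test was made on them.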
